A study of Homo sapiens with 4 samples.

Results

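Nonsense-mediated decay is the cytoplasmic pathway that removes transcripts whose stop codon lies in an unfavourable position, most often upstream of an exon junction complex left behind by splicing. The genes described here are 17 factors of that pathway and of the exon junction complex, and 12 transcripts known as its targets, taken by symbol from a list of 29 genes among the 40188 genes with values. All 29 had a mean level of at least 1 cRPKM over the 4 libraries, so none was lost to the filter on low values; 12706 genes passed that filter. The data are polyA-selected, stranded RNA-seq libraries from HEK293, a human embryonic kidney cell line. There were 4 stable lines, each with an insert that doxycycline switches on: an empty vector as control, MSI1 (an RNA-binding protein), SRRM3, or SRRM4 (a pair of related splicing proteins that promote inclusion of short neural exons). Every line, the empty-vector line included, received doxycycline at 1 µg/mL for 24 h, and each line gave 1 library. The empty-vector library is called the control below. The sources used here do not say whether a line is a single clone.

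The pathway works in steps that order the account below. UPF1, an RNA helicase, is recruited at termination and meets UPF2 and UPF3A or UPF3B on a downstream exon junction complex. The kinase SMG1, held in check by SMG8 and SMG9, phosphorylates UPF1, and phosphorylated UPF1 recruits the endonuclease SMG6 and the adaptor SMG5. Transcripts of several of these factors are themselves decay targets, and so are the spliced transcripts of many small nucleolar RNA (snoRNA) host genes, whose introns carry the snoRNAs while the exons hold only short reading frames.

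With 1 library per group there is no replicate check and no p-value, and an effect of the transgene cannot be told apart from a difference between lines. Levels are cRPKM, reads scaled to the length of the gene and to the total of the library, and can be compared between genes. Ratios are ratios of counts per library total, each with a 95% exact interval that covers counting error only. Log2 folds are ratios of cRPKM after adding 0.5 to each value. A gene is called higher or lower in a comparison when its log2 fold is at least 0.32 in size and its counting interval excludes 1, a rule of size that holds for these libraries only. Total counts were 60288244 to 63003121 per library. Each transgene was highest in its own library: MSI1 at 62.43 cRPKM, SRRM3 at 38.53 and SRRM4 at 63.78, against 8.38, 0.49 and 0.39 in the control. Of the 7 HEK293 markers KRT8, KRT18, EPCAM, LIN28B, SIX2 and NEFM passed the filter and PAX2 did not, with summed levels of 539.61 to 603.88 cRPKM. EPCAM and NEFM were called higher in MSI1 over the control, and SIX2 and NEFM in SRRM3. Among all tested genes 6.6% were called higher in MSI1 and 5.48% in SRRM3. Of 6 fibroblast markers COL1A1 alone passed, and it was called higher in MSI1 over the control, at 4.29 against 3.31 cRPKM, a ratio of 1.30 (1.21 to 1.39); its part in the results was not tested. COL1A2 and DCN were listed at 0, and the sum was 3.63 to 4.62 cRPKM; the 5 blood cell markers summed to 0.12 to 0.41. In bulk RNA, fewer cells that express a gene and less RNA per cell cannot be told apart.

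In the SRRM3 library the decay targets were at the bottom of the 4 libraries. In the MSI1 library both factors and targets were mostly at the top by cRPKM. All 12 targets had their lowest level in SRRM3, where 26.8% of all tested genes did. In 6 of the 12 the gap to the next library exceeded counting error, against 11.4% of tested genes that were lowest in SRRM3 by that measure. MSI1 held the highest level of 12 of 17 factors and 7 of 12 targets, against 33.8% of all tested genes, and the gap to the next library exceeded counting error for 7 of the factors and 6 of the targets, against 2162 of the 12706 tested genes that were highest in MSI1 by that measure. The remaining factors were highest in SRRM4 (4) or SRRM3 (1) and the remaining targets in the control (3) or SRRM4 (2), against 21.0% of tested genes highest in SRRM4, 26.2% in SRRM3 and 18.9% in the control. The factors had no common lowest library: 8 were lowest in SRRM3, 6 in the control, 2 in SRRM4 and 1 in MSI1, against 26.8%, 21.9%, 24.5% and 26.8% of tested genes. With counts scaled by TMM factors in place of cRPKM, 11 targets were lowest in SRRM3 and SNHG8 was lowest in MSI1. On that scale MSI1 held the highest level of 8 factors and SRRM4 that of 7, so the lead of MSI1 among the factors depended on the scaling. The matching shares of all tested genes on that scale are not given here.

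**Figure D1:**
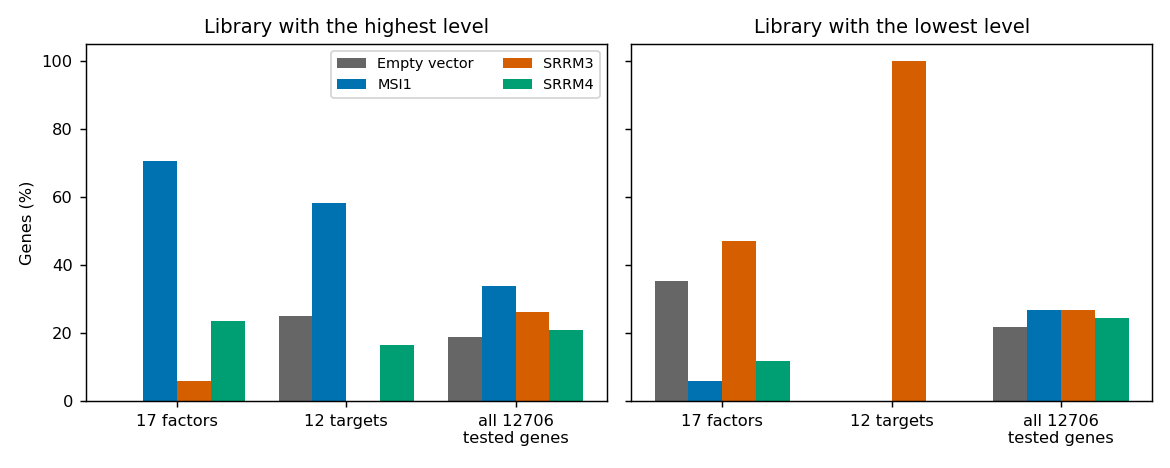
Percent of genes (vertical axis) whose highest (left) or lowest (right) cRPKM lies in each library, for the 17 factors, the 12 targets and all 12706 tested genes; each bar is 1 library. All 12 targets are lowest in SRRM3, against 26.8% of tested genes.

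The differences behind this order were small. Summed over the 12 targets, levels were 428.02 cRPKM in the control, 473.94 in MSI1, 382.45 in SRRM3 and 417.52 in SRRM4. Summed over the 17 factors they were 613.03, 639.59, 604.55 and 633.57 cRPKM in the same order. The sums of the factors thus lay closer together than those of the targets. The mitochondrially encoded mRNAs differed between libraries as well: 11 of 13 were called higher in SRRM3 over the control and 4 of 13 in MSI1, against 5.48% and 6.6% of tested genes. Their median log2 folds were 0.61 and 0.28, and their summed level was 10738.66, 12853.83, 15974.25 and 11212.99 cRPKM. Whether they play a part in the differences of the decay genes was not tested.

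**Figure D2:**
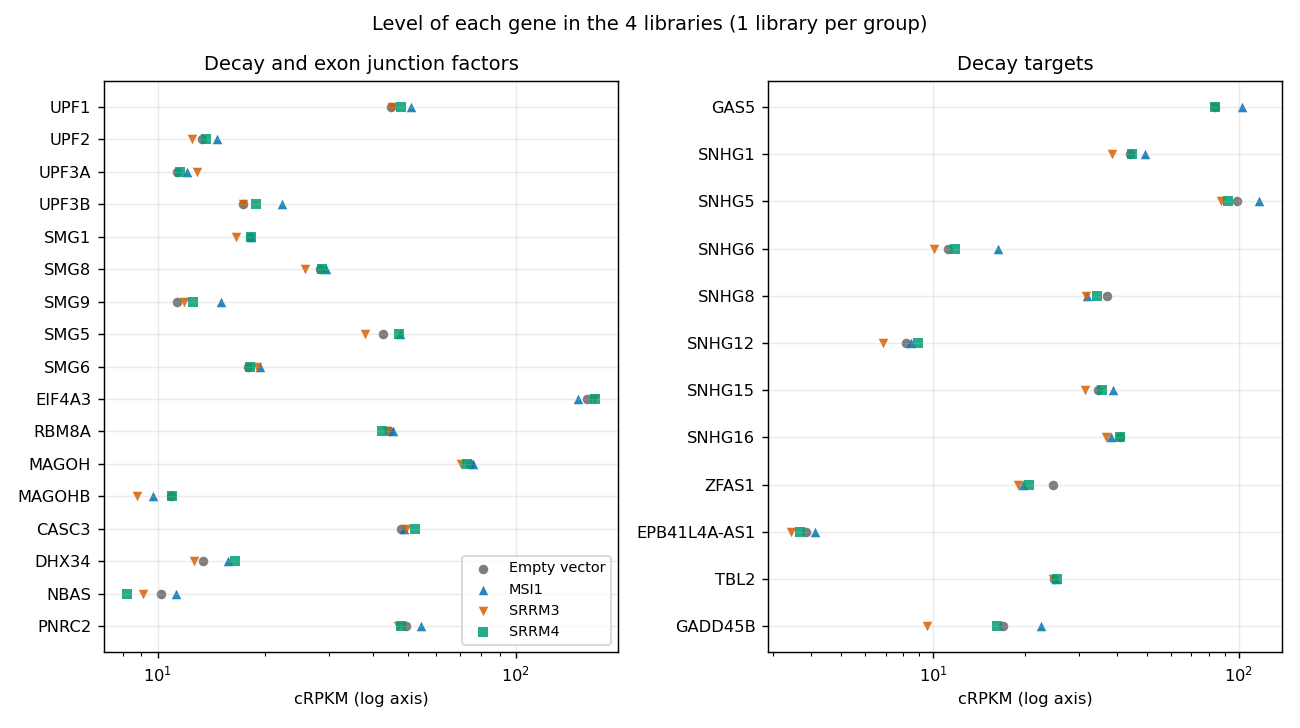
Level of each factor (left) and target (right) in cRPKM on a log axis, 1 point per library. EIF4A3 is the most abundant factor in each library, and SNHG5 and GAS5 are the most abundant targets.

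In MSI1 against the control, which asks what differs when MSI1 is induced, 2 of 17 factors were called higher, UPF3B and SMG9, and none lower. Among all tested genes 6.6% were called higher and 4.12% lower. The median log2 fold of the factors was 0.11, against 0.02 for all tested genes, and 15 of 17 lay above 0, against 53.4% of tested genes. The counting interval excluded 1 on the higher side for 11 factors, against 32.3% of tested genes, and on the lower side for 2, EIF4A3 and MAGOHB, against 27.6%.

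Among the core factors, UPF1 was the most abundant, at 44.84 cRPKM in the control, 50.99 in MSI1, 45.00 in SRRM3 and 47.73 in SRRM4. Its ratio in MSI1 was 1.14 (1.11 to 1.16), under the rule. UPF3B (chromosome X, 119805311 to 119852998, GRCh38), which tethers UPF2 to the exon junction complex, was at 17.32, 22.25, 17.35 and 18.83 cRPKM in the control, MSI1, SRRM3 and SRRM4 libraries. MSI1 stood above the other libraries, SRRM4 was next, and the control and SRRM3 could not be told apart by counting error. The ratio of MSI1 to the control was 1.28 (1.22 to 1.35). UPF3A, the paralog of UPF3B and the least abundant core factor by its mean, was at 11.32, 12.09, 12.91 and 11.54 cRPKM in the same order. It was highest in SRRM3, with a ratio of 1.14 to the control (1.07 to 1.22), so the paralogs peaked in different libraries. UPF2 lay between 12.49 cRPKM in SRRM3 and 14.63 in MSI1.

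In the SMG1 kinase complex the subunit SMG9 (chromosome 19, 43727992 to 43754990) differed most. Its levels were 11.32 cRPKM in the control, 15.02 in MSI1, 11.88 in SRRM3 and 12.53 in SRRM4, and each step in that order of levels exceeded counting error. The ratio of MSI1 to the control was 1.33 (1.27 to 1.38), the largest among the factors. SMG8, the other regulatory subunit, was at 28.32, 29.44, 25.78 and 28.75 cRPKM, lowest in SRRM3. The kinase SMG1 was also lowest in SRRM3, at 16.61 cRPKM against 18.06 in the control, and MSI1 and SRRM4 did not differ beyond counting error. Of the 50-base stretches of the longest SMG1 transcript 18.0% also occur in transcripts of other genes, the most in the pseudogene SMG1P2, so its count is uncertain. The same share was 9.2% for PNRC2 and 5.1% for RBM8A, and SMG8 shares 11.2% of its exonic bases with AC099850.2 on the same strand, so these counts are uncertain to that extent.

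Among the effectors, SMG5 was at 42.55 cRPKM in the control, 47.57 in MSI1, 37.94 in SRRM3 and 47.16 in SRRM4. MSI1 and SRRM4 were level within counting error, and SRRM3 lay below the control with a ratio of 0.89 (0.87 to 0.92). SMG6 lay between 17.91 cRPKM in the control and 19.33 in MSI1. HIC1, which shares 22.9% of the exonic bases of SMG6 on the opposite strand, reached at most 0.56 cRPKM.

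The exon junction complex had the median nearest to 0 of the factor roles in MSI1, a log2 fold of 0.02 over its 5 members. EIF4A3, its RNA-clamping helicase and the most abundant factor, was at 157.37, 149.03, 165.20 and 166.04 cRPKM in the control, MSI1, SRRM3 and SRRM4 libraries. It was the one factor lowest in MSI1, with a ratio of 0.95 to the control (0.93 to 0.97). MAGOHB, a near-copy of the core subunit MAGOH, was the least abundant, at 10.91, 9.74, 8.77 and 10.97 cRPKM in the same order. The control and SRRM4 were level and SRRM3 was lowest, with a ratio of 0.80 (0.75 to 0.86), just short of the rule on the log2 scale. MAGOH itself lay between 70.13 and 75.99 cRPKM, and no neighbouring libraries in its order differed beyond counting error. Only 2.1% of the 50-base stretches of the longest MAGOH transcript and 1.8% of those of MAGOHB occur in other genes. RBM8A, the partner of MAGOH, lay between 42.23 and 45.47 cRPKM and CASC3, the fourth core protein, between 47.92 and 52.27.

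Of the accessory factors, DHX34, a helicase that promotes decay through UPF1, was at 13.43 cRPKM in the control, 15.71 in MSI1, 12.67 in SRRM3 and 16.41 in SRRM4. MSI1 and SRRM4 were thus above the control, with ratios of 1.17 (1.12 to 1.22) and 1.22 (1.17 to 1.28), both under the rule. NBAS, which also serves in Golgi-to-ER transport, was at 10.20, 11.26, 9.09 and 8.23 cRPKM in the control, MSI1, SRRM3 and SRRM4 libraries, and each step in its order exceeded counting error. Its ratio in SRRM4 was 0.81 (0.77 to 0.84). PNRC2, an adaptor to the decapping machinery, lay between 46.85 cRPKM in SRRM3 and 54.18 in MSI1.

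**Figure D3:**
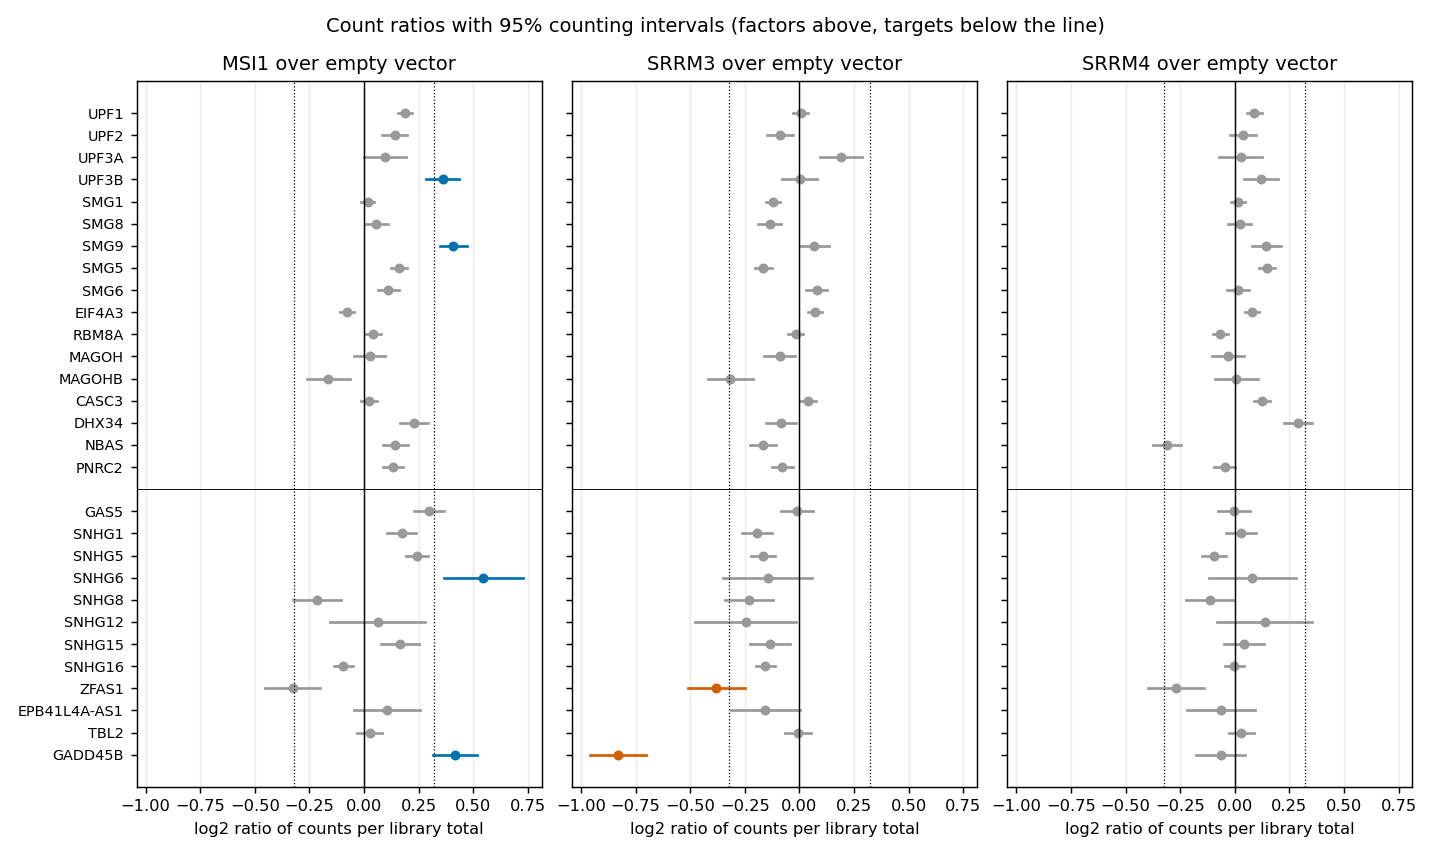
Log2 ratio of counts per library total over the control (horizontal axis) for each factor and target, with 95% counting intervals as bars; dotted lines mark a log2 ratio of 0.32 in size and colour marks genes called by the rule. The 4 called genes in MSI1 lie on the higher side, the 2 in SRRM3 are ZFAS1 and GADD45B on the lower side, and SRRM4 has none. Calls use the log2 fold of cRPKM and not the ratio drawn. ZFAS1 in MSI1, with a count ratio of 0.7968, therefore lies beyond the dotted line but is not called.

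The targets are 10 noncoding snoRNA host genes and the coding genes TBL2 and GADD45B. Host genes of snoRNAs often belong to the class whose transcripts begin with a terminal oligopyrimidine tract, which ties them to ribosomal protein genes. The RefSeq start windows of 8 hosts are shown because the sign of the MSI1 difference split the hosts, from 20 bases before to 30 bases from the first base; SNHG6 and SNHG15 are not shown. Capitals mark a C followed by at least 4 bases that are each C or T, beginning within 5 bases of the first base and read on the transcribed strand alone (RefSeq, GRCh38.p14).
ZFAS1 (chr20:49278622-49278671, plus strand): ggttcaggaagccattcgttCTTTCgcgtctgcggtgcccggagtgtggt
SNHG8 (chr4:118278742-118278791, plus strand): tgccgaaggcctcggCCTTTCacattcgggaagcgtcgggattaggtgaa
SNHG16 (chr17:76557744-76557793, plus strand): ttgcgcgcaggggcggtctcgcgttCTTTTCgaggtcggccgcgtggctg
SNHG5 (chr6:85678704-85678753, minus strand): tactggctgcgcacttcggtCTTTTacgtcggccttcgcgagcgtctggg
SNHG12 (chr1:28581844-28581893, minus strand): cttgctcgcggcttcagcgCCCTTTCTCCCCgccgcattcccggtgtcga
GAS5 (chr1:173869016-173869065, minus strand): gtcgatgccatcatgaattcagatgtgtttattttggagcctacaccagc
SNHG1 (chr11:62855856-62855905, minus strand): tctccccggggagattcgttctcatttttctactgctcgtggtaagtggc
EPB41L4A-AS1 (chr5:112160506-112160555, plus strand): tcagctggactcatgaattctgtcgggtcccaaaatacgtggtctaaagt
The tract was found in 5 of the 8 hosts, in 29.8% of the 9923 tested genes with a window, in 25.2% of all 27305 genes with one, in 54 of 62 ribosomal protein genes and in 2 of 15 factors. SNHG8, SNHG16 and ZFAS1, the hosts below the control in MSI1, all carry it, and so do SNHG5 and SNHG12, which were above the control. The tract begins at the first base in ZFAS1 and SNHG5 and 1 base before it in SNHG12. In SNHG8 the tract begins 5 bases before the first base, and in SNHG16 at base 6. The first base that RefSeq gives for GAS5, 173869045, lies outside the GENCODE 29 gene (chromosome 1, 173863900 to 173868882), so its window need not hold the start used in these cells. A match of letters is a description and not a functional site.

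In MSI1 2 of 12 targets were called higher, SNHG6 and GADD45B, and none lower, against 6.6% and 4.12% of tested genes. The median log2 fold was 0.13, with 9 targets above 0 and 3 below, against 53.4% of tested genes above 0. Intervals excluded 1 for 6 of 12 on the higher side and 3 of 12 on the lower side, against 32.3% and 27.6% of tested genes, so the count on the lower side was near the background.

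SNHG6 was at 11.16 cRPKM in the control, 16.30 in MSI1, 10.09 in SRRM3 and 11.80 in SRRM4. MSI1 stood alone, and the other libraries did not differ from their neighbours beyond counting error. Its ratio in MSI1 was 1.46 (1.29 to 1.66), from 415 and 615 reads. GAS5, a host whose exons are also studied as a growth-arrest RNA, was at 83.46, 102.53, 82.85 and 83.33 cRPKM in the same order. Again MSI1 alone stood apart, with a ratio of 1.23 (1.17 to 1.29), under the rule. The count of GAS5 divided by its cRPKM gives a length of 0.583 kb, against 1698 bases for its longest annotated transcript, and 19 of its 29 annotated transcripts retain an intron.

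SNHG5, the most abundant target, was at 98.38 cRPKM in the control, 116.48 in MSI1, 87.64 in SRRM3 and 92.11 in SRRM4. Each step in that order exceeded counting error. The ratio was 1.18 in MSI1 (1.14 to 1.23) and 0.89 in SRRM3 (0.86 to 0.92). SNHG1 and SNHG15 showed a like order, with 43.95 and 34.56 cRPKM in the control, 49.50 and 38.69 in MSI1, 38.42 and 31.51 in SRRM3, and 44.82 and 35.59 in SRRM4. In both, MSI1 was highest and SRRM3 lowest beyond counting error, and the control and SRRM4 were level.

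ZFAS1 (chromosome 20, 49278178 to 49295738) ran the other way in MSI1, but its lowest level was also in SRRM3. It was at 24.74 cRPKM in the control, 19.71 in MSI1, 19.00 in SRRM3 and 20.53 in SRRM4. The control stood above all the others, which did not differ from their neighbours beyond counting error. The ratios to the control were 0.80 in MSI1 (0.73 to 0.87), 0.77 in SRRM3 (0.70 to 0.84) and 0.83 in SRRM4 (0.76 to 0.91); these comparisons share the empty-vector library. ZFAS1 is called lower in SRRM3. In MSI1 its log2 fold of -0.321 was just short of the threshold of 0.322, and it was called lower there with a pseudocount of 0.1 (-0.33), with centring on the median gene (-0.34) and with TMM factors (-0.35). SNHG8 was highest in the control too, at 37.10 cRPKM against 31.95 in MSI1, 31.62 in SRRM3 and 34.35 in SRRM4. SNHG16 was at 40.93, 38.32, 36.75 and 40.84 cRPKM in the control, MSI1, SRRM3 and SRRM4 libraries, with the control and SRRM4 level.

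The least abundant hosts were SNHG12 and EPB41L4A-AS1. SNHG12 (chromosome 1, 28578538 to 28583132) was at 8.13, 8.48, 6.86 and 8.94 cRPKM in the control, MSI1, SRRM3 and SRRM4 libraries, from 289 to 361 reads. Only its gap between SRRM3 and the next library exceeded counting error. EPB41L4A-AS1 was at 3.83, 4.12, 3.44 and 3.66 cRPKM, and no neighbouring libraries differed. It shares 49.6% of its exonic bases with EPB41L4A on the opposite strand, which was at 2.55 to 3.34 cRPKM, and the sources used here do not say whether the counting used strand, so its level is uncertain. ZFAS1 shares 11.1% of its exonic bases with ZNFX1 on the opposite strand, which was lowest in SRRM3 at 3.56 cRPKM and highest in MSI1 at 4.83. Of 23 annotated snoRNA genes within 9 of the hosts 20 had values, and none exceeded 36 reads in a library of this polyA-selected RNA.

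The coding targets differed from each other. TBL2 was at 24.83 cRPKM in the control, 25.27 in MSI1, 24.73 in SRRM3 and 25.35 in SRRM4. No neighbouring libraries differed beyond counting error, although 9 of its 22 annotated transcripts are typed as decay substrates; counts per gene cannot tell them from the others. GADD45B (chromosome 19, 2476122 to 2478259), a stress-induced regulator of growth arrest, was at 16.95, 22.59, 9.54 and 16.20 cRPKM in the same order. MSI1 was highest, SRRM3 lowest, and the control and SRRM4 were level within counting error. The ratio to the control was 1.33 in MSI1 (1.24 to 1.43) and 0.56 in SRRM3 (0.52 to 0.61), the widest range of any member.

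The comparison of SRRM3 with the control puts that question for SRRM3. No factor was called, against 5.48% of tested genes called higher and 3.0% lower. The median log2 fold of the factors was -0.08, with 7 above 0 and 10 below, and intervals excluded 1 for 5 on the higher and 9 on the lower side, against 29.6% and 28.1% of tested genes. Among the targets ZFAS1 and GADD45B were called lower and none higher. The median of the targets was -0.16, against 0.00 for all tested genes, and none lay above 0, where 50.4% of tested genes did. Intervals excluded 1 for 8 of the 12; GAS5, SNHG6, EPB41L4A-AS1 and TBL2 were the others. The low position of the targets in SRRM3 was thus made of differences mostly under the rule of size.

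In SRRM4 against the control no factor and no target was called, where 2.3% of tested genes were called higher and 2.15% lower. The median log2 fold was 0.03 for the factors, with 13 of 17 above 0, and -0.0027 for the targets, with 5 of 12 above 0, against 48.5% of tested genes. Factors with intervals above 1 were 7, among them DHX34, SMG5 and SMG9, and those below were NBAS and RBM8A, against 23.2% and 25.1% of tested genes. For the targets no interval lay above 1, and those below were SNHG5, SNHG8 and ZFAS1.

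SRRM4 against SRRM3 compares the related proteins without the control. DHX34 was the 1 factor called higher, with a ratio of 1.30 (1.24 to 1.36), and SNHG12 and GADD45B were the targets called higher, with ratios of 1.30 (1.11 to 1.53) and 1.70 (1.55 to 1.86). None was called lower. The background was 3.11% called higher and 6.04% lower. All 12 targets lay above 0, with a median of 0.13, and 8 had intervals above 1 and none below, while 48.2% of tested genes lay above 0, 27.1% had intervals above 1 and 30.5% below. Of the factors 10 had intervals above 1 and 4 below. SMG5 and MAGOHB, both with a log2 fold of 0.31, were short of the rule by cRPKM and called with TMM factors. SNHG12 was not called with a pseudocount of 2 (0.30).

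Set against the MSI1 library in place of the control, 7 members were called lower in SRRM3, namely UPF3B, SMG9, SMG5, SNHG1, SNHG5, SNHG6 and GADD45B, and none higher. The background there was 7.3% of tested genes called higher and 6.49% lower. In SRRM4 NBAS, SNHG5, SNHG6 and GADD45B were called lower against MSI1 and none higher, with a background of 5.23% higher and 8.11% lower. These comparisons share the MSI1 library. GADD45B had the lowest ratio in SRRM3, 0.42 (0.39 to 0.46).

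The wider pathway was described with 5 lists written for these data with earlier results known. Other decay machinery (27 genes, among them release factors and cap-binding proteins) had a median log2 fold of -0.05 in MSI1 with none called. Among all tested genes 6.6% were called higher there and 4.12% lower. In SRRM3 1 of the 27 was called lower, near the background of 3.0%, and none higher, against 5.48% of tested genes. It was NCBP1, a subunit of the nuclear cap-binding complex, with a ratio of 0.79 (0.76 to 0.81). MOV10, a helicase that works with UPF1, had a log2 fold of 0.30 and was not called. In SRRM4 none was called, against 2.3% of tested genes called higher and 2.15% lower. The largest folds were -0.31 for XRN1, the exonuclease that degrades decapped RNA, 0.29 for ZC3H12A and -0.29 for NCBP1. ZC3H12A was near the filter, at 1.41 cRPKM in the control and 1.84 in SRRM4. NCBP1 was thus below the control in SRRM4 too, with a ratio of 0.81 (0.79 to 0.84), under the rule.

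Other snoRNA hosts (15 of 17 genes tested) had a median of -0.01 in MSI1, with 3 called higher and none lower. The background was 6.6% called higher and 4.12% lower. Of the 15 hosts 7 lay above 0 and 8 below, and intervals excluded 1 for 4 on each side. The 3 called higher were SNHG32, SNHG29 and SNHG7, with ratios of 1.46 (1.40 to 1.52), 1.44 (1.41 to 1.47) and 1.43 (1.26 to 1.62). SNHG29 was the most abundant of them, at 223.39 cRPKM in the control and 320.95 in MSI1. None of the 3 was called in SRRM3 or SRRM4 over the control. In SRRM3 TAF1D and SNHG4 were called lower, with ratios of 0.72 (0.66 to 0.79) and 0.77 (0.66 to 0.90), against 3.0% of tested genes. There 11 of 15 lay below 0, with a median of -0.07, where 50.4% of tested genes lay above 0. In SRRM4 none was called, against 2.3% of tested genes called higher and 2.15% lower.

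Of the other coding targets (23 genes tested) 7 were called higher in MSI1 and 1, ARC, lower, against 6.6% and 4.12% of tested genes, with a median of -0.07. The 1 gene called lower is near the background. The list ran both ways, with 10 genes above 0 and 12 below. Intervals excluded 1 for 9 genes on the higher side and 12 on the lower, against 32.3% and 27.6% of tested genes. UPP1, a uridine phosphorylase, had a ratio of 1.67 (1.57 to 1.77), ATF3 1.60 (1.54 to 1.66) and ATF4 1.54 (1.51 to 1.56). The others called higher were DDIT3, PPP1R15A, GADD45A and CDKN1A; these and ARC were named after their values were seen. ATF4, ATF3, DDIT3 and PPP1R15A are genes of the integrated stress response, and GADD45A and CDKN1A are growth-arrest genes. Named the same way, the 12 genes on the lower side were ARC, SRSF2, SRSF3, SRSF6, SRSF7, TRA2A, TRA2B, HNRNPA2B1, HNRNPDL, RBM39, TIA1 and CLK4. All but ARC act in splicing or its control and were under the rule, with ratios of 0.84 (TRA2A) to 0.95 (TIA1). In SRRM3 ATF3 and ARC were called lower, ATF3 with a ratio of 0.72 (0.69 to 0.76), and in SRRM4 RBM39 was called higher, with a ratio of 1.33 (1.30 to 1.36). The background was 3.0% called lower in SRRM3 and 2.3% called higher in SRRM4. Like GADD45B, ATF3 was highest in MSI1 and lowest in SRRM3, with 34.24, 54.64, 24.79 and 34.69 cRPKM in the control, MSI1, SRRM3 and SRRM4 libraries.

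Lists of genes known for a pyrimidine-rich start were added for comparison. Of 78 ribosomal protein genes none was called in MSI1 or SRRM4 over the control, and 1, RPL13, was called higher in SRRM3. Their medians were -0.01, -0.01 and 0.0045 in MSI1, SRRM3 and SRRM4. Of 19 translation factors and related genes with such a start none was called over the control, with medians of -0.02, -0.04 and -0.01. Among all tested genes 6.6% were called higher and 4.12% lower in MSI1. The shares were 5.48% and 3.0% in SRRM3, and 2.3% and 2.15% in SRRM4. The targets' medians of 0.13 and -0.16 in MSI1 and SRRM3 lay farther from 0 than those of these lists. They also lay farther from 0 than those of other snoRNA hosts (-0.01 and -0.07) and other coding targets (-0.07 and -0.05). Whether the pyrimidine-rich start plays a part was not tested.

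**Figure D4:**
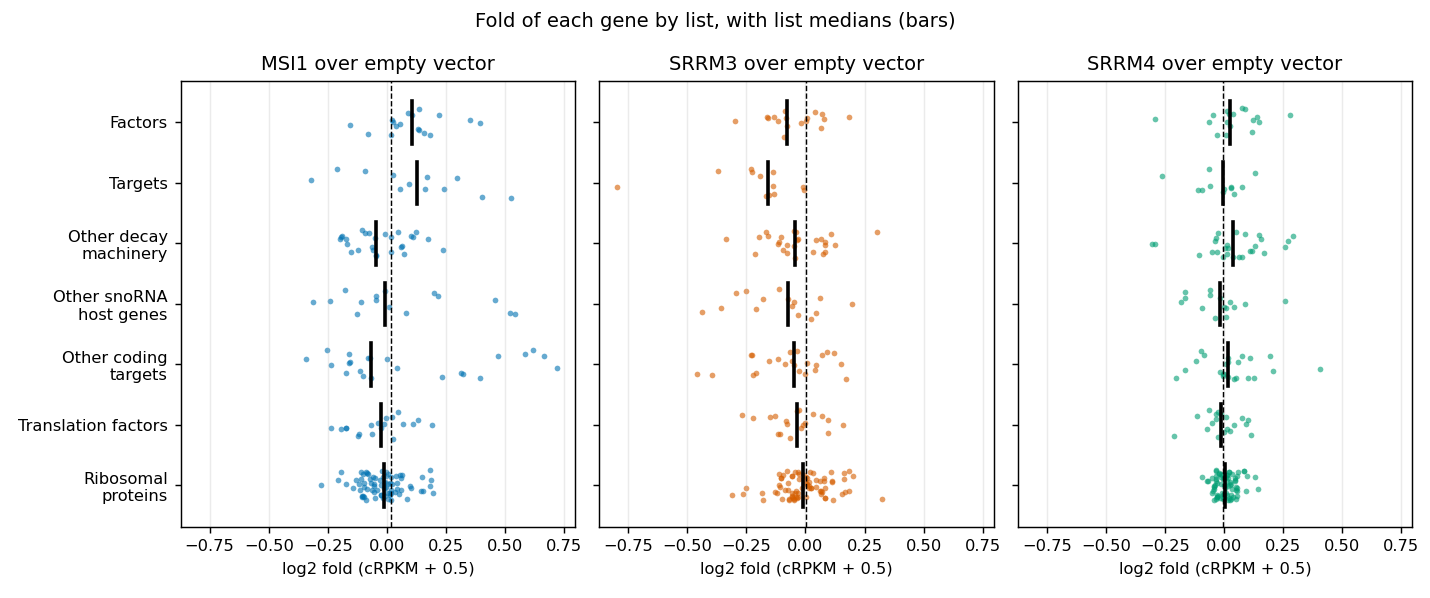
Log2 fold over the control (horizontal axis) of each gene by list, 1 point per gene; thick bars are list medians and the dashed line is the median of all tested genes. The target median is 0.13 in MSI1 and -0.16 in SRRM3, and other coding targets run from -0.34 to 0.72 in MSI1.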

How the data were processed

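Each of the 4 libraries has a table that gives, per Ensembl gene, a deposited cRPKM (an RPKM; the sources used here do not expand the c) and a deposited whole-number read count made by the authors. Per the submitters' processing notes the genome build was GRCh38, also called hg38. The aligner, counter, annotation release and strand setting: not given in the sources used here. Over 8406 genes with at least 1000 reads in every library, count and RPKM agree within rounding, so cRPKM behaves as the count over the library total and 1 fixed length per gene. The tables list 41614 genes, of which 1426 hold no value; symbols were found for 39633 of the rest. Coordinates and transcript types come from GENCODE 29 on GRCh38.

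Computed here were log2 folds of cRPKM with a pseudocount of 0.5, for genes with a mean of at least 1 cRPKM, and exact conditional (Clopper-Pearson) 95% intervals of count ratios, which cover counting error only. Groups come from the labels, with 1 library each. Members and lists were chosen with earlier results of these data known. All members are accounted for, with values in each library for those called and the highest and lowest of each role; up to 3 genes per other list and comparison are those with the largest fold, and the few named beyond that are said to be so in the text. Of 199 genes in the 10 other lists, 198 were found. Alternatives were pseudocounts of 0.1 and 2, no filter or a mean of at least 5, centring, TMM factors, 1.5-fold and 2-fold rules, the mean, and MSI1 as control. The procedure was tested on simulated counts. TMM factors came from edgeR 4.0.16 under R 4.3.3; all else was computed in Python 3.11.15 with scipy 1.17.1, pandas 2.3.3 and numpy 2.4.6, and drawn with matplotlib 3.10.9.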

Additional observations from a re-analysis of the deposited data

Results flagged for a closer look

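GADD45B was called higher in MSI1 over the control, with a log2 fold of 0.40, and lower in SRRM3 over the control, with a log2 fold of -0.80. The libraries lay on opposite sides of their shared control, each beyond counting error. With 1 library in each group, that difference was not tested.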

How the results depend on the processing

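No paired analysis was possible because each group has 1 library and the labels give no replicate numbers. With 1 library per group, no library could be left out. Under both pseudocounts, both filters, centring, TMM factors and the mean, median log2 folds of factors and targets kept their sign, except that of the targets in SRRM4 over the control, which lay near 0 and was above it with centring and TMM factors. With the MSI1 library as control they moved to -0.18 (factors) and -0.29 (targets) in SRRM3 and to -0.064 and -0.13 in SRRM4, and the members called lower became 3 factors and 4 targets in SRRM3 and 1 factor and 3 targets in SRRM4. The 1.5-fold rule left 0 members called in MSI1, 1 target (GADD45B) lower in SRRM3, and 0 factors and 1 target higher in SRRM4 over SRRM3. The 2-fold rule left 0 in each. The shares of all tested genes under these 2 rules are not given here. ZFAS1 became 1 target called lower in MSI1 with a pseudocount of 0.1, centring or TMM factors. Of the 12706 tested genes 609, 591 and 733 were called lower there under these settings. In SRRM4 over SRRM3, TMM factors gave 3 factors called higher, where 514 of the 12706 tested genes were called higher and 809 lower. A pseudocount of 2 gave 1 target called higher in that comparison. The order by TMM-scaled counts was added after seeing the data: it put 1 factor highest and 3 lowest in the control, 2 factors and 1 target lowest in MSI1, and 7 factors highest in SRRM4. With a pseudocount of 2, calls over all genes (higher and lower) went from 838 and 523 to 459 and 306 in MSI1, from 696 and 381 to 380 and 210 in SRRM3, from 292 and 273 to 171 and 129 in SRRM4, and from 395 and 768 to 244 and 392 in SRRM4 over SRRM3. A mean of at least 5 cRPKM gave 388 and 302, 253 and 248, 108 and 138, and 251 and 304 in the same comparisons, and no filter gave 482 higher in SRRM4 over the control. SNHG12, SNHG6 and EPB41L4A-AS1 rest on the fewest reads and have the widest intervals.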
